A study of Mus musculus with 12 samples.

Results

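The cytochrome P450 enzymes of the mouse kidney were followed over 12 arrays from control mice and mice with renal tubule deletion of fumarate hydratase, alone or together with Hif-1α. The members were all probes whose single platform symbol is Cyp, a number, a letter and a number. This took in 63 probes of 48 genes, out of 23863 probes and 12344 genes with a symbol. Cyp51 lies outside the pattern, and Cyp1a1, Cyp4a10 and Cyp2j5 had no probe in the values used, so they could not be measured. Family 1 held 1 gene (Cyp1b1), family 2 held 22, family 3 held 1 (Cyp3a13), family 4 held 12 and all other families together 12. A single probe measured 40 genes, more than 1 probe measured 8, and 1 symbol (Cyp4b1-ps2) is that of a pseudogene.

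P450 enzymes are heme proteins that insert oxygen into lipids, steroids, vitamins and foreign compounds, with electrons passed on by P450 reductase or, in mitochondria, by ferredoxin. Families 1, 2 and 3 are best known for drugs and other foreign compounds, although the 2J and 2C subfamilies also make epoxides of arachidonic acid. Family 4 hydroxylates fatty acids at the far end of the chain, and the remaining families build, activate or break down sterols, bile acids, vitamin D and retinoic acid. In the kidney most of them are found in the proximal tubule, and several are known in mice to differ between the sexes.

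The study asked what part Hif activation plays in the renal cysts of Fh1-deficient mice, using deletions of Hif-1α, Hif-2α and the Phd enzymes. The arrays cover its control, Fh1 KO and Hif1a/Fh1 KO groups only, at an age of early cystic disease. The labels give C57BL/6 as the strain and 15 weeks as the age of all mice, and per the methods the lines had been backcrossed to C57/BL6J over several generations. Fh1 KO mice carried Fh1 fl/fl alleles with Ksp-Cre, whose kidney-specific cadherin promoter is active in renal tubule cells, so that other kidney cells keep both genes. By the paper's staining, some of the renal tubules kept Fh1 protein too. Hif1a/Fh1 KO mice carried Fh1 fl/fl and Hif-1α fl/fl alleles with Ksp-Cre. Control mice came from the same litters, and either lacked the Cre transgene or kept a wild-type copy of the gene. Each group had 4 arrays (n = 4 throughout). The labels name cysts as the tissue of all 12 arrays, controls included, and do not say which part of the control kidneys was taken. Arrays are told apart by replicate number only, so p-values measure the spread between these arrays. In RNA of whole tissue, fewer cells of a type and less RNA per cell cannot be told apart.

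Signals are given as log2 values, on which 1 unit is a fold of 2. They ran from 6.40 to 16.59 over all probes, with array medians of 9.32 to 9.47, and precision is limited by 4 arrays a group. For the deleted genes, the brightest Fh1 probe lay at 14.23 to 14.28 in control, 13.98 to 14.24 in Fh1 KO and 13.76 to 14.10 in Hif1a/Fh1 KO arrays. The log2 fold changes were -0.14 (limma adjusted p = 0.45) and -0.40 (limma adjusted p = 0.014). The brighter Hif1a probe was higher in Hif1a/Fh1 KO than in control by 0.85 (limma adjusted p = 0.016), and the dimmer one differed by -0.19 (limma adjusted p = 0.65). In Fh1 KO they differed from control by 0.35 (limma adjusted p = 0.37) and 0.97 (limma adjusted p = 0.046), and between the knockout groups the dimmer one differed by -1.16 (limma adjusted p = 0.099). Where these probes lie relative to the deleted exons was not determined, so they do not check the labels. The kidney markers Lrp2 and Umod were bright, with control means of 16.09 and 16.22. Of 15 measured proximal tubule markers, 3 fell in Fh1 KO and 12 in Hif1a/Fh1 KO, while both principal cell markers rose in both groups. Proximal tubule signal averaged -0.63 to -0.33 from the control mean in Fh1 KO arrays and -0.80 to -0.39 in Hif1a/Fh1 KO arrays, against -0.05 to 0.06 in controls.

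P450 genes were spread widely in signal. The 10 brightest in controls were Cyp7b1 and members of families 2 and 4, namely Cyp2a4, Cyp2a5, Cyp2d9, Cyp2d26, Cyp2e1, Cyp2j11, Cyp4a12a, Cyp4b1 and Cyp4b1-ps2. The mean signal of 16 genes lay in the lowest 25% of all probes (under 8.28). These were Cyp11a1, Cyp11b1, Cyp11b2, Cyp21a1, Cyp26a1, Cyp26b1, Cyp2b10, Cyp2b19, Cyp2c37, Cyp2c54, Cyp2c65, Cyp2c67, Cyp2f2, Cyp2u1, Cyp4f18 and Cyp4f40. Whether these were above background is not known, because no detection value could be assigned to the arrays. Signals of different probes are not compared as amounts.

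Arrays of the same group differed more in the P450 genes than in most genes. The range over the 4 controls exceeded 1 in 22 of 48 P450 genes (45.8%) and in 6.33% of all genes, and it exceeded 2 in 12 (25%) and in 1.33% of all genes. The median SD within groups was 0.40 for the P450 genes and 0.20 for all genes. Over the 12 arrays Cyp4a12a, an enzyme that hydroxylates arachidonic acid, spanned 6.76, rank 5 of 12344 genes. Cyp2j13 of the epoxygenase subfamily spanned 6.29 (rank 9), Cyp7b1, which hydroxylates oxysterols, 5.32 (rank 24), and Cyp4a14, a fatty acid hydroxylase, 5.18 (rank 26).

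**Figure D1:**
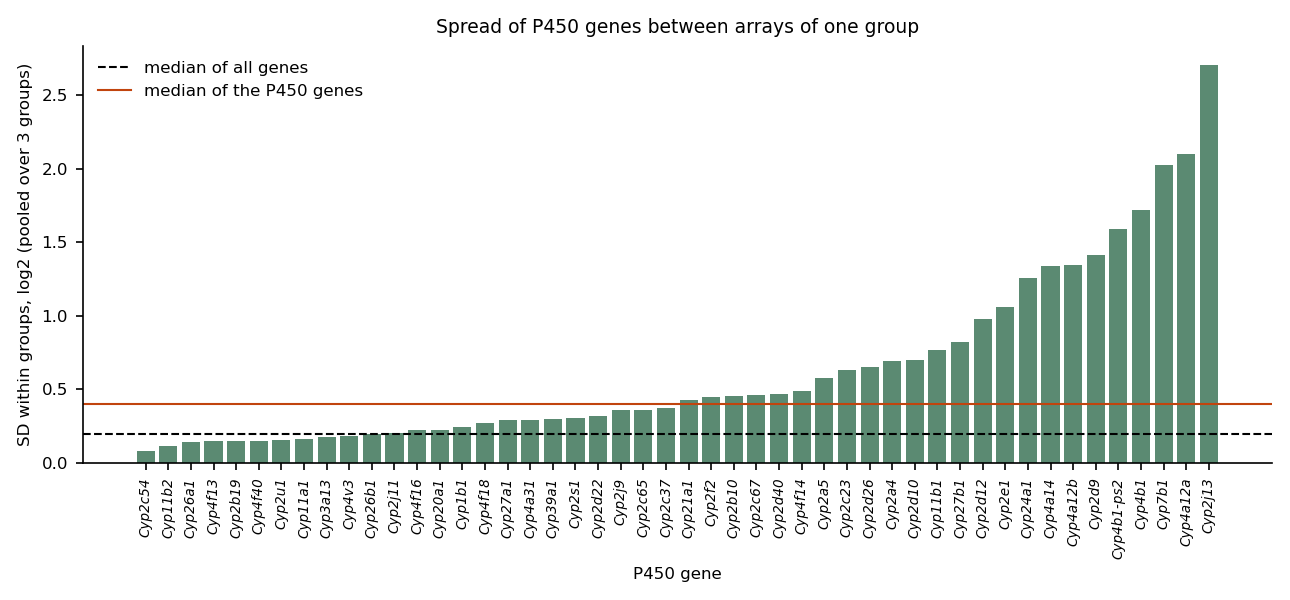
SD of log2 signal within groups (vertical axis, pooled over the 3 groups of 4 arrays) for each of the 48 P450 genes (bars). The solid line is the median of the P450 genes (0.40) and the dashed line that of all genes (0.20), and the highest bar is Cyp2j13 at 2.70.

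Much of this spread ran with a split of the arrays that the genotype labels do not contain. Xist, the RNA that coats the inactive X chromosome, was at 12.07 or above on 5 arrays (control 4, Fh1 KO 1 and 3, Hif1a/Fh1 KO 2 and 3) and at 7.76 or below on the other 7. The Y-linked genes Eif2s3y and Kdm5d ran the opposite way without overlap, at most 7.77 and 7.54 on the arrays with high Xist and at least 10.38 and 9.26 on the rest. The labels name no sex, so the arrays are called by their Xist level, and their differences are described without a test. Control has 1 array with high Xist and each knockout group has 2.

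On the arrays with high Xist, 8 of 48 P450 genes (16.7%) lay below every array with low Xist, against 1.15% of all genes, and 1 (2.08%) lay above, against 0.648%. The 8 were Cyp2a4, Cyp2d9, Cyp2e1, Cyp2j13, Cyp4a12a, Cyp4b1, Cyp4b1-ps2 and Cyp7b1. The 1 above was Cyp2d22, at 11.67 to 12.02 against 10.98 to 11.62.

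Cyp2j13 had the widest gap. Its controls were at 13.95, 13.68, 13.69 and 7.66 in the order of replicates 1, 2, 3 and 4, its Fh1 KO arrays at 7.74, 12.56, 8.36 and 13.31, and its Hif1a/Fh1 KO arrays at 13.09, 8.65, 10.28 and 12.76. The 5 arrays with high Xist lay between 7.66 and 10.28, and the other 7 between 12.56 and 13.95. Cyp7b1 showed the same order, with controls at 15.03, 14.63, 15.14 and 9.82, Fh1 KO arrays at 10.67, 13.24, 10.34 and 14.62, and Hif1a/Fh1 KO arrays at 13.23, 10.78, 12.51 and 13.40. Control 4 was thus the lowest of all 12 for both genes.

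Cyp4b1, a family 4 enzyme that also activates some lung toxins, and its pseudogene ran alike over the arrays. Both were near the top of the signal range with low Xist, at 15.19 to 16.25 and 15.18 to 16.20, and at 11.998 to 13.63 and 12.17 to 13.91 with high Xist. Each taken from its own mean over the 12 arrays, their signals differed by at most 0.24 on any array, and shared hybridisation was not tested. Cyp2e1, which oxidises ethanol and acetone, lay at 15.56 to 16.36 with low and 13.42 to 14.66 with high Xist. Cyp2d9, a testosterone hydroxylase, lay at 13.67 to 14.77 and 10.49 to 13.41.

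Cyp4a12a and Cyp2a4 were separated by narrow margins. Cyp4a12a, known in mice to be induced by androgen, was at 13.79 to 15.96 with low Xist and 9.20 to 13.69 with high Xist. Cyp2a4, a steroid hydroxylase, was at 13.69 to 14.76 and 12.70 to 13.67. Its near copy Cyp2a5, the coumarin hydroxylase of mice, was low on 3 of the 5 arrays only: Fh1 KO 3 at 14.12, Hif1a/Fh1 KO 3 at 14.44 and control 4 at 14.61, with 15.17 to 15.83 on the rest. Shared hybridisation between near copies was not tested.

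**Figure D2:**
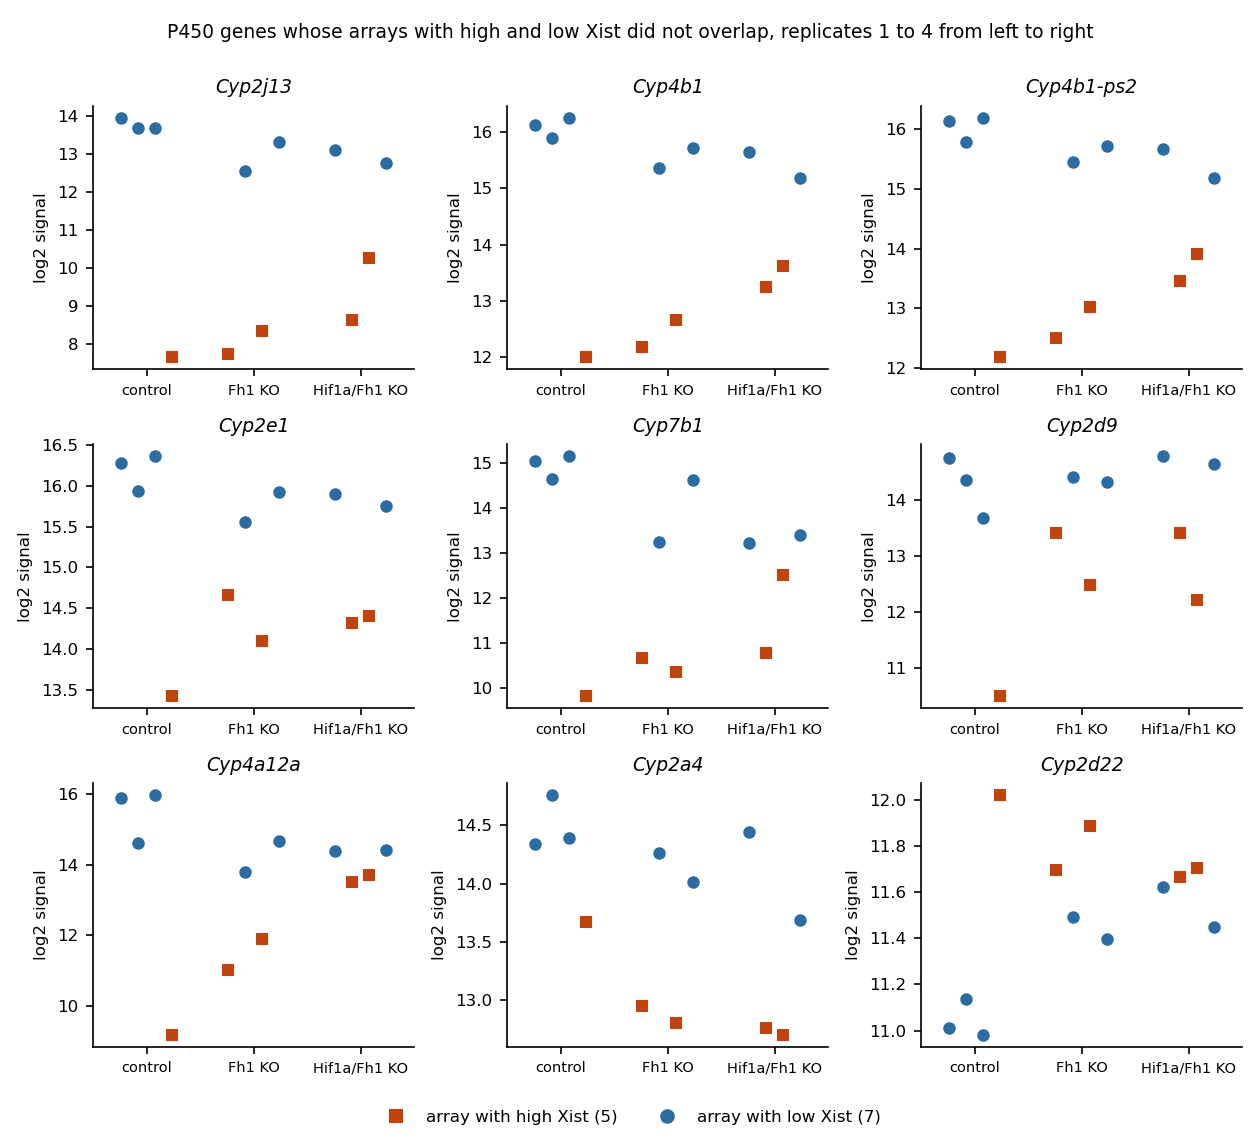
log2 signal (vertical axis) of the 9 P450 genes whose arrays with high Xist (squares) and low Xist (circles) did not overlap, by genotype group, with replicates 1, 2, 3 and 4 from left to right. In 8 panels every square lies below every circle, and in the panel of Cyp2d22 every square lies above (11.67 to 12.02 against 10.98 to 11.62).

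The gap between arrays with low and high Xist differed in size between the groups. For Cyp2j13 the means differed by 6.12 in control, where a single array has high Xist, by 4.88 in Fh1 KO and by 3.46 in Hif1a/Fh1 KO. For Cyp4a12a they differed by 6.28, 2.76 and 0.81, for Cyp7b1 by 5.12, 3.42 and 1.67, and for Cyp4b1 by 4.09, 3.11 and 1.98. The gap was widest in control for 7 of the 8 genes, all but Cyp2a4, and so it was for 66.2% of the 142 genes that were lower without overlap. In 5 of the 8 (Cyp2e1, Cyp2j13, Cyp4b1, Cyp4b1-ps2 and Cyp7b1) the 3 controls with low Xist lay above all 4 knockout arrays with low Xist, against 52.1% of the 142. These gaps rest on 1 control array and were not tested.

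Control 4 stood apart from the other 3 controls in 12 P450 genes. It lay over 1 unit above all of them for Cyp2d10, Cyp2d26, Cyp4a14 and Cyp4f14 (8.33% of the P450 genes and 0.915% of all genes). It lay over 1 unit below for Cyp2d9, Cyp2e1, Cyp2j13, Cyp4a12a, Cyp4a12b, Cyp4b1, Cyp4b1-ps2 and Cyp7b1 (16.7% and 0.988%).

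Neighbouring genes did not all share the pattern. In chromosome order, 9 P450 genes on chromosome 4 run Cyp2j13, Cyp2j11, Cyp2j9, Cyp4a12a, Cyp4a12b, Cyp4a14, Cyp4a31, Cyp4b1-ps2 and Cyp4b1. Beside Cyp2j13, the arrays with high and low Xist overlapped in Cyp2j11 (13.74 to 14.74 against 14.26 to 14.98) and in Cyp2j9 (9.54 to 10.53 against 9.96 to 10.84). Beside Cyp4a12a they overlapped in Cyp4a12b (8.68 to 11.996 against 11.35 to 13.36) and in Cyp4a14. Cyp4a12b still ran closely with Cyp4a12a over the 12 arrays (Pearson r = 0.97), while Cyp4a14 ran the other way (r = -0.66). Chromosome 15 carries 8 P450 genes, among them Cyp2d9, which was lower on the arrays with high Xist, and Cyp2d22, which was higher.

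Fh1 KO arrays had 4 P450 genes above control after adjustment over all probes (limma adjusted p under 0.05). This is 4 of 48 genes, where 3.9% of all genes were called higher. None was lower with limma, where 2.26% of all genes were. At an unadjusted p under 0.05 there were 8 higher and 4 lower P450 genes, against 11.6% and 12.4% of all genes. A plain linear model called 1 higher (Cyp4v3) and 1 lower (Cyp2c54, a dim gene), and its share of all genes was not counted. The 4 and 4 arrays did not overlap in 7 higher and 3 lower P450 genes, against 8.08% and 8.13% of all genes. With a fold of at least 2 asked for as well, 2 were higher (1.27% of all genes) and 0 lower (0.292%). The median log2 fold change was -0.19 over the P450 genes and -0.03 over all genes.

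Hif1a/Fh1 KO arrays had 6 P450 genes above control, where 10.7% of all genes were called, and 2 below, where 8.64% were. The arrays did not overlap in 6 higher and 4 lower P450 genes, against 12.2% and 9.78% of all genes. With a fold of at least 2 asked for as well, 2 were higher (2.92% of all genes) and 0 lower (1.12%), and at an unadjusted p under 0.05 there were 9 higher and 6 lower (17.5% and 17.1%). The median log2 fold change was -0.02 over the P450 genes and -0.03 over all genes. The 3 groups differed in 7 of 48 genes by limma's moderated F test, against 14% of all genes. Fold changes against control ran from -1.75 to 3.19 in Fh1 KO and from -1.63 to 3.13 in Hif1a/Fh1 KO, and both comparisons share the same 4 control arrays. As a share of the 48 P450 genes, 8.33% were called higher in Fh1 KO, against 3.9% of all genes. In Hif1a/Fh1 KO 12.5% were called higher, against 10.7% of all genes, and 4.17% lower, against 8.64%. These shares rest on 2 to 6 genes each and were not tested against those of all genes.

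**Figure D3:**
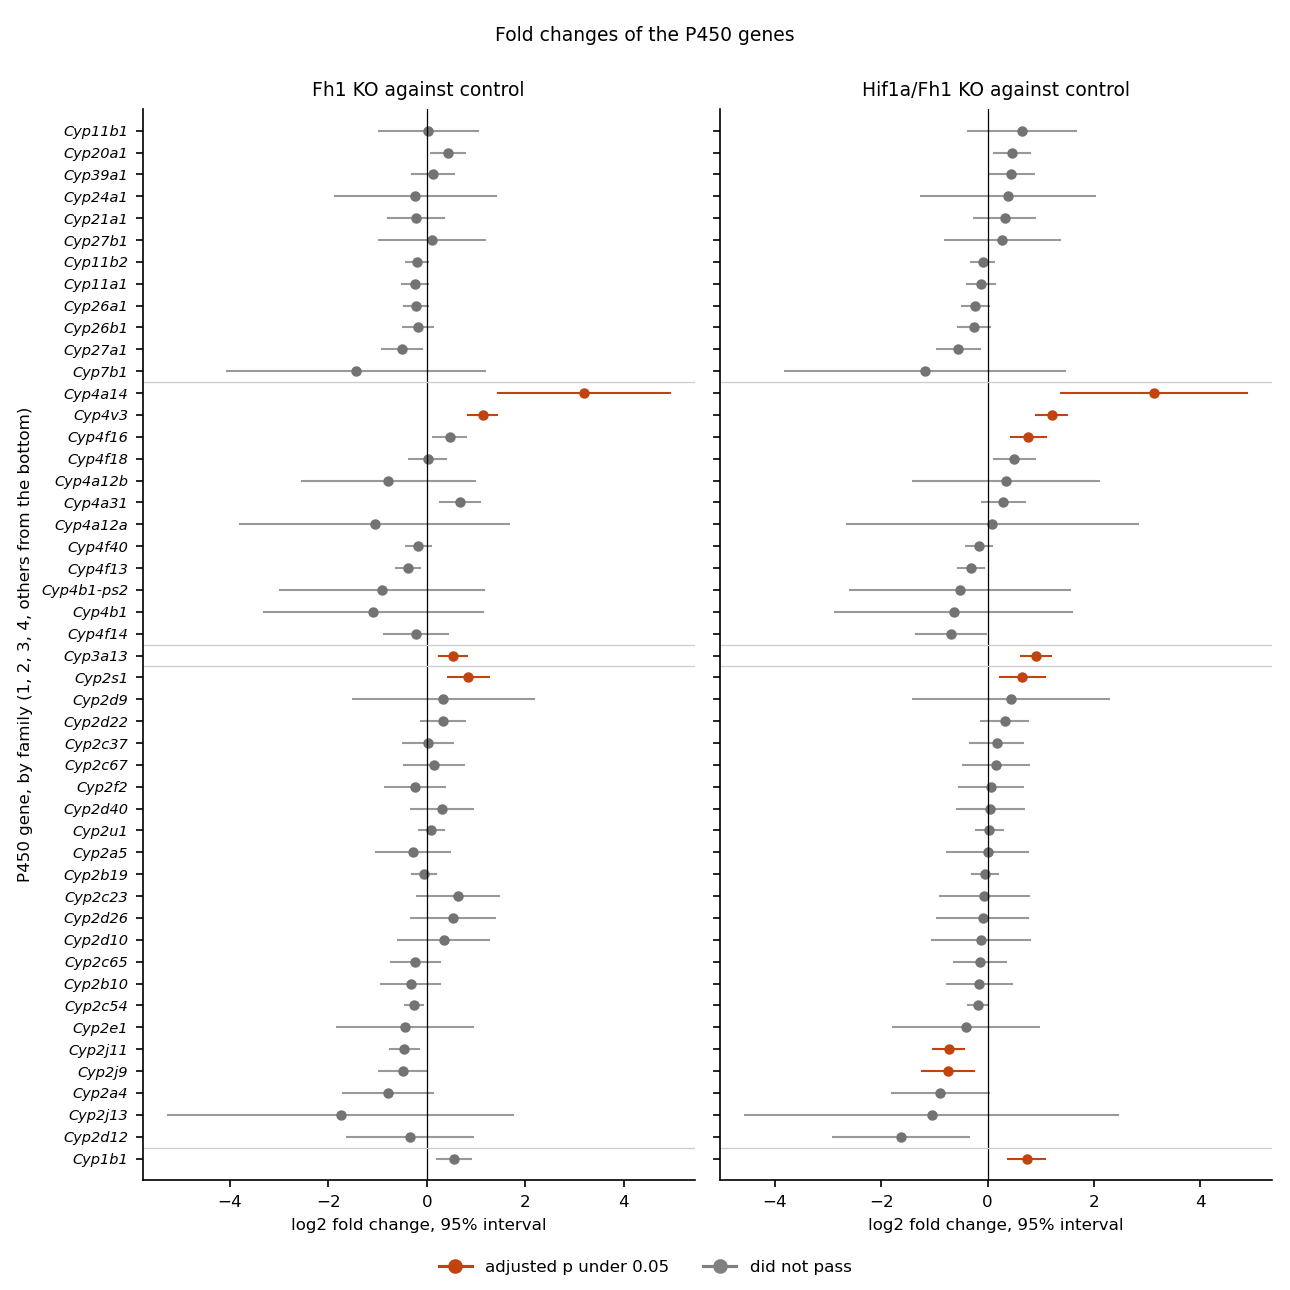
log2 fold change against control (horizontal axes, points) with its 95% interval (lines) for each of the 48 P450 genes, ordered by family, in Fh1 KO and Hif1a/Fh1 KO. Coloured genes passed the test (4 higher in Fh1 KO, 6 higher and 2 lower in Hif1a/Fh1 KO), and the widest intervals belong to genes such as Cyp2j13 (-5.26 to 1.76 in Fh1 KO).

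By family, family 4 held 2 of the 4 genes called higher in Fh1 KO and 3 of the 6 in Hif1a/Fh1 KO. Family 2 held 1 higher gene in each comparison and both lower genes. Family 3 held 1 higher gene in each, family 1 held 1 in Hif1a/Fh1 KO, and none of the 12 genes of the other families was called by limma in either, with 1 higher and 1 lower at an unadjusted p under 0.05 in Fh1 KO and 2 and 1 in Hif1a/Fh1 KO. The median log2 fold change of family 2 was -0.14 in Fh1 KO and -0.08 in Hif1a/Fh1 KO, that of family 4 was -0.19 and 0.19, and that of the other families was -0.20 and 0.09.

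Cyp4v3, the mouse counterpart of human CYP4V2, a fatty acid hydroxylase mutated in a crystalline disease of the retina, rose in both knockout groups. Controls were at 9.22, 9.32, 9.11 and 9.31, Fh1 KO arrays at 10.54, 10.17, 10.55 and 10.25, and Hif1a/Fh1 KO arrays at 10.13, 10.58, 10.65 and 10.42. No knockout array came near a control array, whether its Xist was high or low. The log2 fold change was 1.14 (SE 0.13, fold 2.20, limma adjusted p = 0.0007) in Fh1 KO and 1.20 (SE 0.13, fold 2.30, limma adjusted p = 0.00013) in Hif1a/Fh1 KO. The exact permutation p was 0.029 in each, the smallest that 4 against 4 arrays allow (two-sided). Both calls held whichever of the 12 arrays was left out, and on the 7 arrays with low Xist the changes were 1.00 (limma adjusted p = 0.034) and 1.06 (limma adjusted p = 0.0084).

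Promoters are shown for the 7 of 8 called genes that have an entry in RefSeq's table (GRCm38.p6), as the 250 bases before the start in the direction of the gene. Cyp4a14 has no entry, so its promoter was not searched. The 7 promoters were searched on both strands for the hypoxia element core ACGTG, the aryl hydrocarbon receptor element core GCGTG, the antioxidant element core TGACNNNGC and the nuclear receptor half-site AGGTCA. Capitals mark matches. The Cyp4v3 promoter (chr8:45333164-45333413, minus strand) holds a palindrome that reads ACGTG on both strands, and a GCGTG. Those of Cyp1b1 (chr17:79715062-79715311, minus strand), Cyp4f16 (chr17:32536307-32536556, plus strand) and Cyp2j9 (chr4:96591486-96591735, minus strand) each hold a GCGTG, which reads CACGC where it lies on the other strand. The Cyp3a13 promoter (chr5:137921620-137921869, minus strand) and the Cyp2s1 promoter (chr7:25816526-25816775, minus strand) hold none of these letters, nor does that of Cyp2j11, which fell (chr4:96348681-96348930, minus strand).
Cyp4v3: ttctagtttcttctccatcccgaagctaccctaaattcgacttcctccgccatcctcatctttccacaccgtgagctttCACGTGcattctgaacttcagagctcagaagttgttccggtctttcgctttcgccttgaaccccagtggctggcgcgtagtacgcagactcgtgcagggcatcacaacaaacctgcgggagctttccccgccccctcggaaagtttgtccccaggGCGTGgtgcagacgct
Cyp1b1: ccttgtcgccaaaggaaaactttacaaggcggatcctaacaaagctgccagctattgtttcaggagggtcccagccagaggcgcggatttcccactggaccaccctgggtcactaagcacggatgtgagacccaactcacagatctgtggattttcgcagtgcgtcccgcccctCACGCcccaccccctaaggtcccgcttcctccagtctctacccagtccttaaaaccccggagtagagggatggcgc
Cyp4f16: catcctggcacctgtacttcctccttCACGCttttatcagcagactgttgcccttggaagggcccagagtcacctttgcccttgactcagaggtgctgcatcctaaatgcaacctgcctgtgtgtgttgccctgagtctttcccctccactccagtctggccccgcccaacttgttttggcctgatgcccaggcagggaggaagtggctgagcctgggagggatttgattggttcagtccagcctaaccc
Cyp2j9: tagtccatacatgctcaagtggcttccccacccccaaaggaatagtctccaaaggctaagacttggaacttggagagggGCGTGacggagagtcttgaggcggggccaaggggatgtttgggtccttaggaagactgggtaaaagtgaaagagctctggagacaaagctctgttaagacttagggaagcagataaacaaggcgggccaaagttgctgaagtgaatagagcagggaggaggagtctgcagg
Cyp3a13: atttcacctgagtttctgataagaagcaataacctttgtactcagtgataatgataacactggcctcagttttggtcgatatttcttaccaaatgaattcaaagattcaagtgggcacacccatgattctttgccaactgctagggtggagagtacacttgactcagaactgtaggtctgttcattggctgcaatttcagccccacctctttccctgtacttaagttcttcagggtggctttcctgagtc
Cyp2s1: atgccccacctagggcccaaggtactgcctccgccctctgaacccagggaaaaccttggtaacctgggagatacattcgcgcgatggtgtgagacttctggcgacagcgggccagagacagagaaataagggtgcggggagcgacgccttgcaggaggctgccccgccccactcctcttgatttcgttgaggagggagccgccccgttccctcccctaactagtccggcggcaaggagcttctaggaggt
Cyp2j11: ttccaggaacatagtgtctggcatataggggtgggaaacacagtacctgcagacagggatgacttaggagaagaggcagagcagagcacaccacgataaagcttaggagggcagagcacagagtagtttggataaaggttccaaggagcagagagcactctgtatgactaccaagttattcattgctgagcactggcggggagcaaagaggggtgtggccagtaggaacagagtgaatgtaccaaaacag

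Of the 48 genes, 32 matched an entry, with 38 starts. ACGTG was found before 5.26% of these starts (Cyp2e1 and Cyp4v3) and before 16.6% of all 32851 starts. GCGTG was found before 23.7%, in 8 genes (Cyp1b1, Cyp20a1, Cyp2b10, Cyp2j13, Cyp2j9, Cyp4f14, Cyp4f16 and Cyp4v3, of which 4 were called), and before 28.2% of all starts. TGACNNNGC was found before 5.26% (Cyp4f14 and Cyp4f18) against 10.2%, and AGGTCA before 7.89% (Cyp11a1, Cyp2b19 and Cyp2f2) against 14%. A match describes letters and is not a binding site.

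The promoter of Cyp2j13 is shown beside that of its neighbour Cyp2j11, since only Cyp2j13 split with Xist. It lies at chr4:96077548-96077797 on the minus strand and holds 1 GCGTG, in capitals. The table gives 2 starts for this gene, of which 1 is printed.
Cyp2j13: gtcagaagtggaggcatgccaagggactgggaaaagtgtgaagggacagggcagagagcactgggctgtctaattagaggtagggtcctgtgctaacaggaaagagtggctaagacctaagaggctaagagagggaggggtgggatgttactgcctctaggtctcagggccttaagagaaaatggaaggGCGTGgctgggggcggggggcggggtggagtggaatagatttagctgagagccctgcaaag

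Cyp4a14, a fatty acid hydroxylase known in mice as a target of PPARα, had the largest fold change of the P450 genes, and its controls disagreed with each other. Controls were at 10.10, 10.53, 9.85 and 14.43, Fh1 KO arrays at 15.03, 13.98, 15.01 and 13.67, and Hif1a/Fh1 KO arrays at 14.73, 14.86, 13.96 and 13.91. Controls 1, 2 and 3 lay well below every knockout array, while control 4 lay among them. With all arrays the log2 fold change was 3.19 (SE 0.80, fold 9.15, limma adjusted p = 0.041) in Fh1 KO and 3.13 (fold 8.78, limma adjusted p = 0.02) in Hif1a/Fh1 KO, with an exact permutation p of 0.086 for each.

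Without control 4, Cyp4a14 was higher by 4.26 (limma adjusted p = 0.0001) in Fh1 KO and by 4.20 (limma adjusted p = 5.4e-05) in Hif1a/Fh1 KO. Control 4 is the control with high Xist, so this fit sets controls with low Xist against knockout arrays of both kinds. On the 7 arrays with low Xist the changes were 3.66 (limma adjusted p = 0.0018) and 4.16 (limma adjusted p = 0.00045). Leaving out 1 of controls 1, 2 and 3, Fh1 KO 1, 2 or 3, or Hif1a/Fh1 KO 2 or 4 ended the call in Fh1 KO (limma adjusted p up to 0.13). The call in Hif1a/Fh1 KO ended without any of controls 1, 2 and 3 or without Hif1a/Fh1 KO 2 (limma adjusted p up to 0.066). Within replicates 1 and 2 the changes were 4.19 (limma adjusted p = 0.01) and 4.48 (limma adjusted p = 0.0018), and within replicates 3 and 4, which include control 4, 2.20 (limma adjusted p = 0.56) and 1.79 (limma adjusted p = 0.52).

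Cyp2s1, an epithelial P450 known to be induced through the aryl hydrocarbon receptor, rose in both groups. Controls were at 10.30, 10.27, 9.96 and 10.60, Fh1 KO arrays at 11.36, 11.16, 11.37 and 10.64, and Hif1a/Fh1 KO arrays at 11.10, 11.29, 10.65 and 10.72. The lowest knockout arrays lay just above control 4, and the groups did not overlap. Cyp2s1 was higher by 0.85 (SE 0.20, fold 1.80, limma adjusted p = 0.029) and 0.66 (fold 1.58, limma adjusted p = 0.038), with an exact permutation p of 0.029 for each. Each call ended in 6 of 12 cases when an array was left out, with controls 1, 2 and 3 among them in both, and on the arrays with low Xist the values were 0.72 (limma adjusted p = 0.21) and 0.73 (limma adjusted p = 0.079).

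Cyp3a13, of the subfamily that oxidises drugs and steroids, rose in both groups. Controls were at 8.24, 8.13, 8.16 and 8.16, Fh1 KO arrays at 8.84, 8.75, 8.94 and 8.31, and Hif1a/Fh1 KO arrays at 8.98, 9.10, 8.98 and 9.26. On this brighter of its probes all 3 groups were apart, with Hif1a/Fh1 KO highest. The difference between the knockout groups did not pass (limma adjusted p = 0.38). Against control the log2 fold change was 0.54 (SE 0.13, fold 1.45, limma adjusted p = 0.037) in Fh1 KO and 0.91 (SE 0.13, fold 1.87, limma adjusted p = 0.0008) in Hif1a/Fh1 KO. A second, dimmer probe gave 0.40 (limma adjusted p = 0.13) and 0.78 (limma adjusted p = 0.004), and on it the Fh1 KO arrays overlapped both other groups. The call in Fh1 KO held in 4 of 12 cases with an array left out, ending without any of the 4 controls, and on the arrays with low Xist the value was 0.35 (limma adjusted p = 0.51). The call in Hif1a/Fh1 KO held in all 12 cases.

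Cyp1b1, which oxidises oestrogens and aromatic hydrocarbons outside the liver, rose in Hif1a/Fh1 KO. Controls were at 10.78, 11.27, 10.79 and 11.37, Fh1 KO arrays at 11.46, 11.61, 11.84 and 11.55, and Hif1a/Fh1 KO arrays at 11.68, 12.13, 11.68 and 11.67. Every knockout array lay above every control. The log2 fold change was 0.74 (SE 0.16, fold 1.67, limma adjusted p = 0.0089) in Hif1a/Fh1 KO and 0.56 (limma adjusted p = 0.066) in Fh1 KO. The difference between the knockout groups was 0.18 (95% interval -0.17 to 0.52, limma adjusted p = 0.89), so the data do not separate them.

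Cyp4f16, of the subfamily that hydroxylates leukotrienes and fatty acids, followed a like order. Controls were at 9.02, 9.03, 8.74 and 9.15, Fh1 KO arrays at 9.60, 9.35, 9.69 and 9.16, and Hif1a/Fh1 KO arrays at 9.77, 9.97, 9.86 and 9.41. Fh1 KO 4 lay just above the highest control. Cyp4f16 had a log2 fold change of 0.77 (SE 0.15, fold 1.70, limma adjusted p = 0.0057) in Hif1a/Fh1 KO and 0.47 (limma adjusted p = 0.099) in Fh1 KO. On the arrays with low Xist the call in Hif1a/Fh1 KO ended, at 0.66 (limma adjusted p = 0.066). Its other probes gave 0.63 (limma adjusted p = 0.01) and 0.38 (limma adjusted p = 0.22) in Hif1a/Fh1 KO.

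The genes that fell in Hif1a/Fh1 KO both belong to the 2J subfamily of arachidonic acid epoxygenases. For Cyp2j11, controls were at 14.92, 14.98, 14.86 and 14.74, Fh1 KO arrays at 14.48, 14.53, 14.25 and 14.39, and Hif1a/Fh1 KO arrays at 14.48, 14.09, 13.74 and 14.26. All knockout arrays lay below all controls, at every level of Xist. Cyp2j11 had a log2 fold change of -0.73 (SE 0.14, limma adjusted p = 0.0037) in Hif1a/Fh1 KO and -0.46 (limma adjusted p = 0.073) in Fh1 KO. A second bright probe gave -0.69 (limma adjusted p = 0.005) in Hif1a/Fh1 KO, and another, dim one -0.25 (limma adjusted p = 0.37). The call held in all 12 cases with an array left out.

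For Cyp2j9, controls were at 10.77, 10.78, 10.47 and 10.53, Fh1 KO arrays at 9.61, 10.84, 9.88 and 10.30, and Hif1a/Fh1 KO arrays at 10.16, 9.93, 9.54 and 9.96. Hif1a/Fh1 KO arrays lay below all controls, while Fh1 KO arrays lay on both sides. Cyp2j9 had a log2 fold change of -0.74 (SE 0.23, limma adjusted p = 0.042) in Hif1a/Fh1 KO and -0.48 (limma adjusted p = 0.24) in Fh1 KO. The call held in 4 of 12 cases, without Fh1 KO 1, 2 or 3 or without Hif1a/Fh1 KO 1, and ended without any other array, with a limma adjusted p of up to 0.11. It also ended on the arrays with low Xist (-0.62, limma adjusted p = 0.11), where that of Cyp2j11 did not (-0.55, limma adjusted p = 0.03). Both genes moved with the proximal tubule markers, whose part in the result was not tested.

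**Figure D4:**
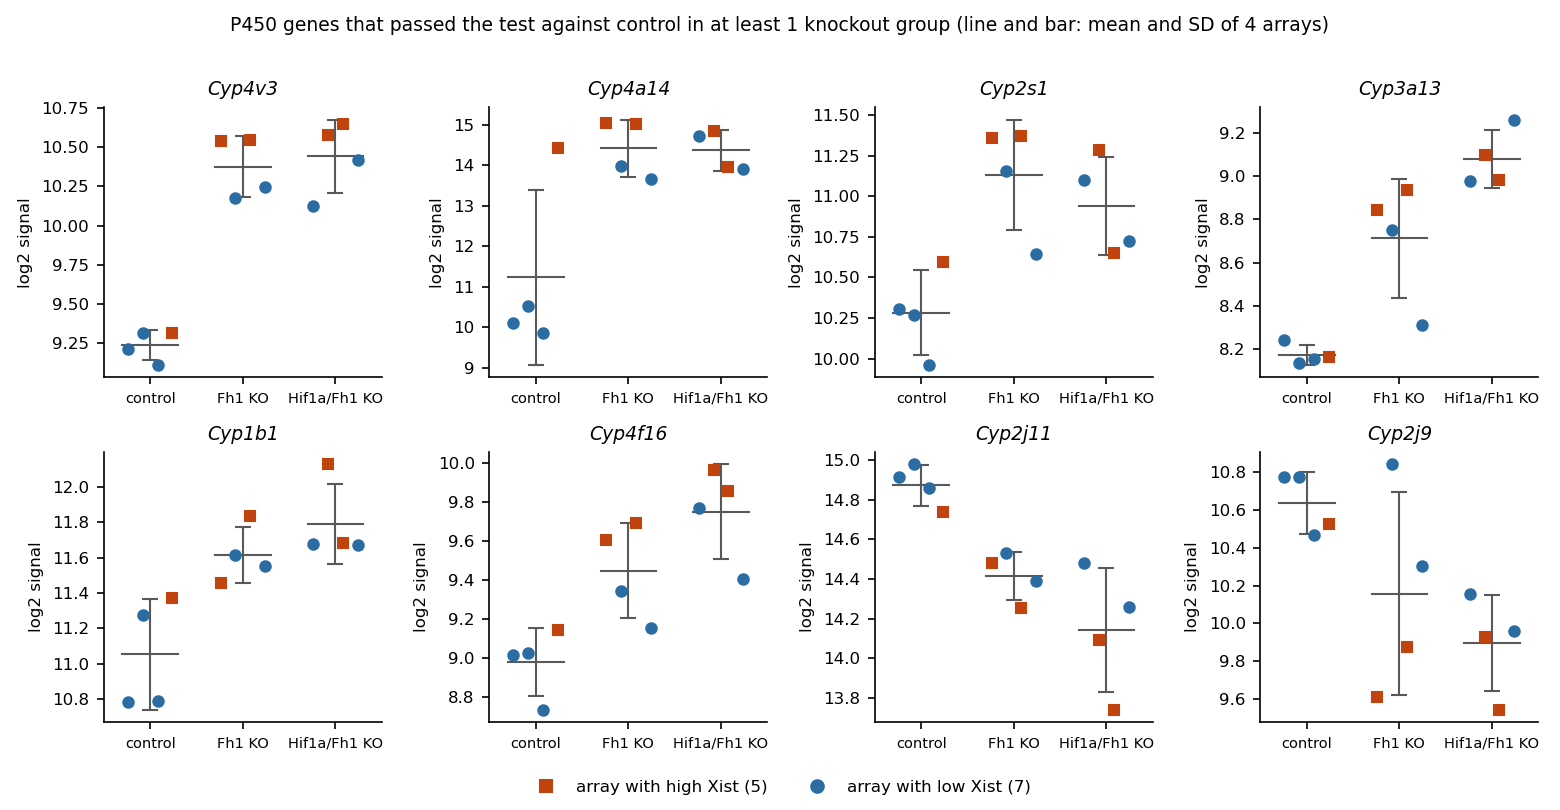
log2 signal (vertical axis) of the 8 P450 genes that passed the test against control in at least 1 knockout group, for 4 arrays a group (squares, high Xist, and circles, low Xist), with the mean and SD of each group. In Cyp4v3 the knockout arrays lie at 10.13 to 10.65 and the controls at 9.11 to 9.32, while in Cyp4a14 control 4 (14.43) lies among the knockout arrays.

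Cyp27a1, a mitochondrial enzyme of bile acid synthesis, was split between probes. Its brightest probe averaged 12.26 ± 0.31 (SD, n = 4) in control, 11.76 ± 0.33 in Fh1 KO and 11.71 ± 0.21 in Hif1a/Fh1 KO, with log2 fold changes of -0.50 (limma adjusted p = 0.14) and -0.55 (limma adjusted p = 0.064). Its other 2 probes passed in Hif1a/Fh1 KO at -0.59 (limma adjusted p = 0.027) and -0.63 (limma adjusted p = 0.039).

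The genes that split with Xist gave wide intervals against control. Cyp2j13 had a log2 fold change of -1.75 in Fh1 KO (95% interval -5.26 to 1.76, limma adjusted p = 0.59) and -1.05 in Hif1a/Fh1 KO (95% interval -4.56 to 2.46, limma adjusted p = 0.71). Cyp7b1 had -1.44 (95% interval -4.06 to 1.19, limma adjusted p = 0.55) and -1.18 (95% interval -3.81 to 1.45, limma adjusted p = 0.55). Cyp4a12a had -1.06 (95% interval -3.79 to 1.67) and 0.09 (95% interval -2.64 to 2.82), and Cyp2e1 had -0.44 (95% interval -1.82 to 0.94) and -0.41 (95% interval -1.79 to 0.98). The intervals of Cyp2j13 and Cyp4a12a span changes of several fold in either direction, while those of Cyp2e1 end just under a rise of 1 unit. Without control 4 the fold changes of all 4 genes were below 0 in both groups and larger in size, with none past limma's threshold. Cyp2j13 was at -3.28 and -2.58 (limma adjusted p = 0.18 and 0.23) and Cyp7b1 at -2.72 and -2.46 (limma adjusted p = 0.11 and 0.092). Cyp4a12a was at -2.63 and -1.48 (limma adjusted p = 0.055 and 0.18), and Cyp2e1 at -1.13 and -1.10 (limma adjusted p = 0.18 and 0.13). The fit without control 4 has no control with high Xist, so genotype and the Xist split cannot be told apart in it. On the 7 arrays with low Xist, which leave 3 controls and 2 arrays of each knockout group, Cyp7b1 changed by -1.62 in Hif1a/Fh1 KO (limma adjusted p = 0.036).

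With Xist as a covariate, limma called 4 higher and 2 lower P450 genes in Fh1 KO, against 4.5% and 3.37% of all genes, and 6 higher and 5 lower in Hif1a/Fh1 KO, against 10.7% and 9.59%. The 2 lower genes in Fh1 KO were Cyp2j11 at -0.41 and Cyp4f13 at -0.40, the latter named after its values were seen. The 5 in Hif1a/Fh1 KO were Cyp2a4, Cyp27a1, Cyp2j9, Cyp2j11 and Cyp4f14. On the arrays with low Xist alone, 2 were higher and 0 lower in Fh1 KO (0.77% and 0.113% of all genes), and 4 higher and 2 lower in Hif1a/Fh1 KO (5.08% and 2.76%).

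Hif1a/Fh1 KO and Fh1 KO gave no called P450 gene when set against each other. With limma, 0 were higher and 0 lower, where 0.186% and 0.081% of all genes were, and at an unadjusted p under 0.05 there were 2 higher and 1 lower, against 6.8% and 3.99%. With a fold of at least 2 as well, 0.113% and 0.0486% of all genes were called. The 4 and 4 arrays did not overlap in 1 higher gene, Cyp3a13 (log2 fold change 0.37, limma adjusted p = 0.38), and in 0 lower genes, against 3.94% and 2.09% of all genes. For Cyp4v3 the difference was 0.07 (limma adjusted p = 0.97), for Cyp4f16 0.30 (limma adjusted p = 0.64) and for Cyp2j11 -0.27 (limma adjusted p = 0.62). Log2 fold changes ran from -1.29 (Cyp2d12) to 1.15 (Cyp4a12a), with a median of 0.07 against 0.01 over all genes. A call against control in a single knockout group therefore does not mark a difference between the groups.

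The enzymes of vitamin D varied within every group. Cyp24a1, which breaks down active vitamin D, was at 11.90, 11.77, 11.30 and 12.84 in control, 10.43, 10.38, 12.93 and 13.14 in Fh1 KO, and 12.93, 13.35, 10.24 and 12.81 in Hif1a/Fh1 KO arrays. Low and high arrays occurred in both knockout groups, and they did not follow Xist. The log2 fold change was -0.23 in Fh1 KO (95% interval -1.87 to 1.40, limma adjusted p = 0.90) and 0.38 in Hif1a/Fh1 KO (95% interval -1.26 to 2.01, limma adjusted p = 0.78). Within replicates 1 and 2 alone the values were -1.43 (limma adjusted p = 0.026) and 1.30 (limma adjusted p = 0.007), and within replicates 3 and 4 they had the other sign, 0.96 (limma adjusted p = 0.68) and -0.55 (limma adjusted p = 0.77).

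Cyp27b1, which activates vitamin D, was at 9.04, 9.13, 7.27 and 8.42 in control, 8.67, 9.44, 8.89 and 7.28 in Fh1 KO, and 8.81, 8.81, 9.48 and 7.88 in Hif1a/Fh1 KO arrays. Each group had a low array, and the groups overlapped. The log2 fold changes were 0.10 (limma adjusted p = 0.94) and 0.28 (limma adjusted p = 0.75). Of 14 measured genes of vitamin D handling, 5 fell in Fh1 KO and 9 in Hif1a/Fh1 KO, where Trpv6, a calcium channel, rose. The list's median log2 fold change was -0.54 and -0.77. The phosphate transporter Slc34a3 fell (-1.10, limma adjusted p = 0.0063, and -1.54, limma adjusted p = 0.00027), as did Kl, the klotho gene (-0.81, limma adjusted p = 0.026, and -1.13, limma adjusted p = 0.0015). Several of this list are proximal tubule genes. Lrp2, Cubn and Slc34a1 also stand on the list of proximal tubule markers, so the falls of these lists are not independent.

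The steroid-forming P450 genes of the adrenal cortex were dim by mean signal, and Cyp11b1 and Cyp21a1 were raised on 1 array. Cyp11b1, which makes corticosterone, was at 9.84 on Hif1a/Fh1 KO 3 and at 7.84 or below on the other 11 arrays. Cyp21a1, which acts a step earlier, was at 8.37 on that array and at 7.31 or below elsewhere. Both were named after their values were seen. Cyp11a1 and Cyp11b2 were not raised on it, at 8.21 and 8.14. The adrenal marker Hsd3b1 was at 9.14 on this array against at most 7.46, and Mrap, which is expressed in adrenal and fat, at 10.80 against at most 8.22. Fdx1, also on the adrenal list, went the other way, at 8.34 on this array against 8.66 to 9.40 elsewhere. The 4 measured of 9 adrenal markers averaged 1.34 above control on Hif1a/Fh1 KO 3 and -0.10 to 0.30 on the other arrays. Fat cell markers (4 of 7 measured) averaged 2.46 there and -0.36 to 1.66 elsewhere. The part of other tissue in these values was not tested.

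**Figure D5:**
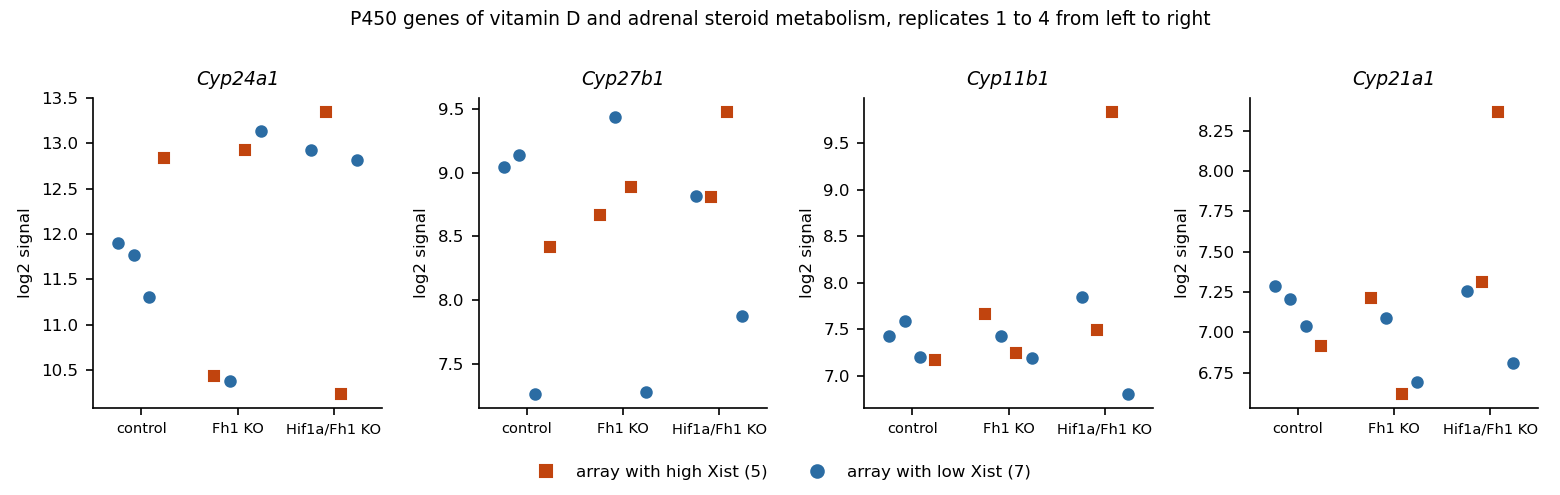
log2 signal (vertical axis) of the vitamin D genes Cyp24a1 and Cyp27b1 and the adrenal genes Cyp11b1 and Cyp21a1 by group, with replicates 1, 2, 3 and 4 from left to right (squares, high Xist, and circles, low Xist). The first pair spreads within every group, while the second pair is highest on Hif1a/Fh1 KO 3 (9.84 and 8.37).

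Leaving out Hif1a/Fh1 KO 3, limma called 7 higher and 1 lower P450 genes in Hif1a/Fh1 KO, against 8.99% and 6.14% of all genes, since Cyp4a31 passed (0.51, limma adjusted p = 0.028) and the call of Cyp2j9 ended. Without control 4 it called 6 higher and 1 lower in Fh1 KO, against 4.63% and 2.73% of all genes, and 8 higher and 2 lower in Hif1a/Fh1 KO, against 11.5% and 9.27%. Gained in Fh1 KO were Cyp1b1 (0.67, limma adjusted p = 0.033), Cyp2d22 (0.57, limma adjusted p = 0.023, where all arrays gave 0.33 with an adjusted p of 0.38), Cyp4a31 (0.76, limma adjusted p = 0.048) and, lower, Cyp4a12b (-1.85, limma adjusted p = 0.017, where all arrays gave -0.78 with an adjusted p of 0.64). The call of Cyp3a13 ended there (limma adjusted p = 0.056). In Hif1a/Fh1 KO, Cyp2d22 (0.57, limma adjusted p = 0.01), Cyp39a1 and, lower, Cyp27a1 (-0.66, limma adjusted p = 0.035) were gained, and the call of Cyp2j9 ended (limma adjusted p = 0.052). Without control 4 no control has high Xist, while both knockout groups keep such arrays. Genotype and the Xist split therefore cannot be told apart in that fit, and Cyp2d22 is a gene that lay higher on the arrays with high Xist.

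Genes of the remaining branches had no call in the fit of all 12 arrays, although some passed under other settings. Cyp26b1 and Cyp26a1, which break down retinoic acid, were dim, with log2 fold changes of -0.18 and -0.21 in Fh1 KO and -0.25 and -0.23 in Hif1a/Fh1 KO. Cyp39a1, which hydroxylates a cholesterol metabolite, had 0.13 (95% interval -0.29 to 0.55) and 0.44 (95% interval 0.02 to 0.86, limma adjusted p = 0.14), and without control 4 it passed in Hif1a/Fh1 KO at 0.60 (limma adjusted p = 0.042). Cyp2d26 had 0.53 (limma adjusted p = 0.48) and -0.09, and Cyp4f14 had -0.22 and -0.69 (limma adjusted p = 0.14), the latter passing with Xist as a covariate at -0.84 (limma adjusted p = 0.01). Named after their values were seen, Cyp2d12 had -1.63 in Hif1a/Fh1 KO (limma adjusted p = 0.078) with controls from 10.13 to 13.19, and Cyp4a31 had 0.68 in Fh1 KO (limma adjusted p = 0.058) without overlap. Cyp2d12 passed under several other settings, among them the array set as a block (limma adjusted p = 0.038), the replicate block (limma adjusted p = 0.017) and array weights (limma adjusted p = 0.016). So did Cyp4a31, among them the array set as a block (limma adjusted p = 0.043), quantile normalisation (limma adjusted p = 0.034) and array weights (limma adjusted p = 0.0082). Cyp4f18, dim throughout, had 0.50 in Hif1a/Fh1 KO (limma adjusted p = 0.069) without overlap, also named after its values were seen.

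Of the electron donors and partners of P450, 11 of 14 were measured, 1 rose and 1 fell in Fh1 KO, and 2 rose and 1 fell in Hif1a/Fh1 KO (median -0.10 and 0.06). Ephx1, the epoxide hydrolase of the endoplasmic reticulum, rose by 1.92 (limma adjusted p = 9.7e-05) and 2.47 (limma adjusted p = 4.2e-06). Cyb5a, the cytochrome that hands electrons to some P450 enzymes, fell (-0.45, limma adjusted p = 0.044, and -0.42, limma adjusted p = 0.029). Of 8 measured genes of heme synthesis, 1 fell in Fh1 KO and 2 in Hif1a/Fh1 KO (median -0.20 and -0.42), among them Uros, which closes the porphyrin ring, with -0.54 (limma adjusted p = 0.02) and -0.76 (limma adjusted p = 0.0009).

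Of 20 measured nuclear receptors and regulators (28 listed), 1 fell in Fh1 KO, and 2 rose and 4 fell in Hif1a/Fh1 KO (median -0.10 and -0.11). Ppara fell in both (-0.58, limma adjusted p = 0.041, and -0.81, limma adjusted p = 0.0031), and Nr1h3, a sterol receptor, fell in Hif1a/Fh1 KO (-0.75, limma adjusted p = 0.007), where the transcription factor Cebpb rose (1.02, limma adjusted p = 0.0083). Of 19 measured PPARα targets other than P450, 0 were called by limma in Fh1 KO, where Cyp4a14 rose (1 higher and 2 lower at an unadjusted p under 0.05), and 1 rose and 2 fell in Hif1a/Fh1 KO (median 0.02 and -0.11). Of 5 measured targets of the aryl hydrocarbon receptor, 1 rose in Fh1 KO and 2 in Hif1a/Fh1 KO (median 0.75 and 0.89). They were Nqo1, a quinone reductase (1.72, limma adjusted p = 0.0016, and 2.16, limma adjusted p = 0.00011), and Aldh3a1 (1.02 in Hif1a/Fh1 KO, limma adjusted p = 0.04). The paper counts Nqo1 among the Nrf2 targets, so the list is not specific to the aryl hydrocarbon receptor.

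Of 17 measured retinoid genes, 3 rose in Fh1 KO, and 4 rose and 1 fell in Hif1a/Fh1 KO (median 0.08 and 0.28). Adh7, a retinol dehydrogenase, rose by 2.28 (limma adjusted p = 1.1e-05) and 3.97 (limma adjusted p = 6.4e-08), and it was the 1 gene of the list that was also higher in Hif1a/Fh1 KO than in Fh1 KO. Aldh1a1, a retinal dehydrogenase, rose by 1.98 (limma adjusted p = 1.9e-05) and 2.55 (limma adjusted p = 1.4e-06). Of 14 measured enzymes of arachidonic acid other than P450, 1 rose in Fh1 KO and 2 in Hif1a/Fh1 KO (median 0.21 and 0.13), namely Ptges, the prostaglandin E synthase (0.93, limma adjusted p = 0.029, and 1.41, limma adjusted p = 0.0011), and Ptgs2 (0.67, limma adjusted p = 0.017). Beside 4 of 48 and 6 of 48 P450 genes called higher, these lists are short, and their counts are given as a description.

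Genes known to be higher in male or female mouse kidney were read beside the split with Xist. Of 5 male genes, Odc1 fell in both comparisons (-1.15, limma adjusted p = 0.035, and -1.13, limma adjusted p = 0.017), and of 2 measured female genes none was called by limma or at an unadjusted p under 0.05. On the arrays with high Xist the female gene Slc7a12 was at 12.41 to 14.09 against 7.83 to 11.97 on the rest, and Abcc3 at 10.74 to 12.01 against 7.97 to 10.08. Of the 5 male genes only Acsm3 was apart, at 7.91 to 13.25 against 13.96 to 15.77. The others overlapped, with Kap at 13.56 to 16.33 against 15.62 to 16.30, Slco1a1 at 7.22 to 9.14 against 8.41 to 12.23, Odc1 at 14.09 to 14.75 against 14.28 to 16.21 and Gusb at 11.33 to 11.75 against 11.44 to 12.66. Cyp4a14 lay at 13.96 to 15.03 on the arrays with high Xist, and at 9.85 to 10.53 in controls and 13.67 to 14.73 in knockout arrays with low Xist. The part of sex in the P450 values was not tested.

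Markers of other cell types also moved between groups. Macrophage markers (5 of 7 measured) rose in 2 cases in Fh1 KO and 4 in Hif1a/Fh1 KO. Of 8 hepatocyte markers (10 listed), Ttr was lower in Hif1a/Fh1 KO. At an unadjusted p under 0.05, 0 were higher and 2 lower in Fh1 KO, and 2 higher and 1 lower in Hif1a/Fh1 KO, and the list's median was -0.03 and 0.33. Adrenal markers gave 1 higher in each, Scarb1. Of 4 fat cell markers, 2 rose in Hif1a/Fh1 KO, and thick limb and intercalated cell markers 1 lower of 2 in each. Distal tubule markers gave 1 and 2 lower of 2, the podocyte marker was lower in Hif1a/Fh1 KO, and 1 of 3 endothelial markers was higher in Fh1 KO. No B cell marker was measured. How far these cells contribute to the P450 values was not tested.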

How the data were processed

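RNA of 12 mice was hybridised to Illumina mouse whole-genome BeadChips, 4 arrays for each of the 3 genotype groups named in the labels. Per the study's methods, the authors extracted signals with GenomeStudio and normalised them in GeneSpring GX with a 75th percentile shift and a baseline at the samples' median. Values as deposited are log2 signals, judged by their range, and are not centred on that baseline. A further 24 deposited columns of signal and detection p-values match no sample by name and were not used, so signal over background is not known. Symbols came from the platform annotation: 19906 probes had 1 symbol, 9 several and 3948 none.

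Each array was shifted to the mean 75th percentile (by -0.03 to 0.04). All probes were fitted in 1 model with limma 3.58.1 in R 4.3.3 (eBayes with a trend), with Benjamini-Hochberg adjustment over all probes and calls at an adjusted p under 0.05. A gene is its probe of highest mean signal. Single genes also had an exact two-sided permutation test over 70 arrangements, whose smallest p is 0.029. The fit was tested on simulated data. Figures were drawn with matplotlib 3.10.9 in Python 3.11.15. Genes were named where a probe passed in any comparison, where they were among the 10 brightest in control, where an array stood apart by Dixon's limit in a group with a range of at least 1, or where they were on a fixed list. Genes named outside this rule were chosen after their values were seen (among them Cyp2d10, Cyp2d12, Cyp2c54, Cyp4a12b, Cyp4a31, Cyp4f13, Cyp4f18, Cyp20a1, Cyp11b1 and Cyp21a1). The members, gene lists and tests were chosen with earlier results of these data known. Alternatives were other normalisations, thresholds, fits, array sets, a block of replicate number, a covariate of Xist signal and leaving out each of 12 arrays. Using only the arrays with low Xist was added after seeing the data.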

Additional observations from a re-analysis of the deposited data

Results flagged for a closer look

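Within groups of 4 arrays, the highest or lowest array of a P450 gene stood apart from the other 3 by Dixon's 95% limit on the gap over the group's range in 14 of 144 groups. The limit's nominal rate is about 1 group in 20. It was applied to the P450 genes only, so the share over all genes is not known. Many of these genes moved together on the same arrays, so the 144 groups are not separate cases and the count is a description. Of the 14, 9 fell on control 4, the control with high Xist. That array was lowest for Cyp2e1 (13.42, next 15.94), Cyp2j13 (7.66, next 13.68), Cyp4b1 (11.998, next 15.89), Cyp4b1-ps2 (12.17, next 15.79) and Cyp7b1 (9.82, next 14.63). It was highest for Cyp2d22 (12.02, next 11.14), Cyp39a1 (8.83, next 8.24), Cyp4a14 (14.43, next 10.53) and Cyp4f14 (10.29, next 9.01).

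The other 5 lay elsewhere. Control 2 was lowest for Cyp2b19 (7.97, next 8.02) and Fh1 KO 1 was lowest for Cyp4f40 (7.80, next 8.04), both among dim genes with small gaps. Hif1a/Fh1 KO 2 was highest for Cyp1b1 (12.13, next 11.68) and for Cyp2d26 (14.08, next 13.07), and Hif1a/Fh1 KO 3 was lowest for Cyp2b10 (6.99, next 7.42).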

How the results depend on the processing

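Counts are of P450 genes higher and lower. In Fh1 KO (4 and 0), the counts were 8 and 4 with array weights, 5 and 2 with the array set as a block, 4 and 2 with Xist as a covariate, 3 and 1 with only the 2 groups compared, 2 and 0 on the arrays with low Xist, 2 and 2 within replicates 1 and 2, 0 and 0 within replicates 3 and 4, 1 higher at adjusted p under 0.01 and 2 at a fold of at least 2. A plain linear model gave 1 and 1, the values without the shift 6 and 0, and any probe 4 and 0. In Hif1a/Fh1 KO (6 and 2), they were 11 and 6 with array weights, 7 and 3 with the array set as a block, 6 and 5 with Xist as a covariate, 4 and 2 on the arrays with low Xist, 11 and 3 within replicates 1 and 2, 1 and 0 within replicates 3 and 4, 4 and 1 at adjusted p under 0.01, and 2 and 0 at a fold of at least 2. A plain linear model gave 4 and 1, the values without the shift 7 and 1, equal medians 6 and 3, and any probe 6 and 3. Between the knockout groups every count was 0 except 2 and 1 within replicates 1 and 2. With the array set as a block, 4.95% and 3.86% of all genes were called in Fh1 KO, and 12.4% and 11.1% in Hif1a/Fh1 KO. The shares with Xist as a covariate, on the arrays with low Xist and at a fold of at least 2 are given above. For the other settings here no share of all genes was counted, so their counts are a description only. The causes were not tested.

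Leaving out 1 array gave 1 to 6 higher and 0 to 1 lower in Fh1 KO, 4 to 8 higher and 1 to 3 lower in Hif1a/Fh1 KO, and 0 between the knockout groups. In Fh1 KO, 1 stayed higher without Fh1 KO 1, 2 or 3 or control 1, 2 or 3, and 2 without Hif1a/Fh1 KO 2. In Hif1a/Fh1 KO, 4 stayed higher without Hif1a/Fh1 KO 2 or control 1, 2 or 3, and 1 stayed lower without Fh1 KO 4, Hif1a/Fh1 KO 2 or 3, or control 1 or 2. Shares of all genes are given above for the fits without control 4 and without Hif1a/Fh1 KO 3, and were not counted for the others.

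The labels do not say that arrays of the same number belong together, so they were not taken as pairs: deviations of same-numbered arrays correlated at -0.31 to 0.50, and 7 of 12 arrays matched best with their own number. With the replicate block the counts were 2 and 0 in Fh1 KO, where Cyp3a13 and Cyp4a14 were no longer called, 6 and 3 in Hif1a/Fh1 KO, and 0 and 0 between them. Of all genes, 3.98% and 2.71% were called with this block in Fh1 KO, and 11% and 9.48% in Hif1a/Fh1 KO. Between the knockout groups 0.113% and 0.0729% of all genes were. The labels name no array sets, and the division by replicate number was made here. Its 2 parts differ in their darkest probes, with a 1st percentile of 7.46 to 7.54 in replicates 1 and 2 and of 7.34 to 7.40 in replicates 3 and 4.

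Among 1298 values of named genes under the alternatives, 1136 kept their direction and their side of the threshold, 31 gained a call, 70 lost it and 61 changed sign. None of the 61 was called by limma in either fit. All log2 fold changes of the opposite sign are given here. With Xist as a covariate they were in Fh1 KO Cyp27b1 -0.0007, and in Hif1a/Fh1 KO Cyp4b1-ps2 0.040. With array weights they were in Fh1 KO Cyp27b1 -0.085, Cyp2d9 -0.48 and Cyp4f14 0.019, and in Hif1a/Fh1 KO Cyp27b1 -0.017, Cyp2a5 -0.018, Cyp2d26 0.30, Cyp2d9 -0.30 and Cyp4a12a -1.02. On the arrays with low Xist they were in Fh1 KO Cyp24a1 0.10, Cyp26b1 0.031 and Cyp27b1 -0.12, and in Hif1a/Fh1 KO Cyp27b1 -0.14, Cyp2d26 0.053 and Cyp4a12a -1.08. With quantile normalisation they were in Hif1a/Fh1 KO Cyp2d26 0.0042. With equal medians they were in Hif1a/Fh1 KO Cyp2a5 -0.033. Within replicates 1 and 2 they were in Fh1 KO Cyp27b1 -0.036, Cyp2d9 -0.64 and Cyp4f14 0.11, and in Hif1a/Fh1 KO Cyp27b1 -0.28, Cyp2d26 0.39, Cyp2d9 -0.46 and Cyp4a12a -1.30. Within replicates 3 and 4 they were in Fh1 KO Cyp24a1 0.96, Cyp2e1 0.12, Cyp2j13 0.16, Cyp39a1 -0.30, Cyp4a12a 0.71, Cyp4b1 0.071, Cyp4b1-ps2 0.18 and Cyp7b1 0.0054, and in Hif1a/Fh1 KO Cyp24a1 -0.55, Cyp2a5 -0.11, Cyp2e1 0.19, Cyp2j13 0.85, Cyp4b1 0.28, Cyp4b1-ps2 0.36 and Cyp7b1 0.47. With 1 array left out the ranges that cross 0 were in Fh1 KO Cyp24a1 -0.71 to 0.21, Cyp27b1 -0.30 to 0.53, Cyp2a5 -0.51 to 0.029, Cyp2d9 -0.60 to 0.82 and Cyp4f14 -0.37 to 0.14, and in Hif1a/Fh1 KO Cyp27b1 -0.12 to 0.57, Cyp2a5 -0.23 to 0.29, Cyp2d26 -0.37 to 0.30, Cyp2d9 -0.50 to 0.96 and Cyp4a12a -1.48 to 0.77.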
